A study of Mus musculus with 6 samples.

Results

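Complement genes other than those of C1q were examined in mouse tumours treated with a CSF1R inhibitor. The genes were taken from a fixed list of 8, namely C3, C4b, C1ra, C1s1, C2, Cfb, C3ar1 and C5ar1, by matching Ensembl identifiers to symbols. Of these, 7 had a row among the 16344 genes of the table, and Cfb was not analysed here. The 5 genes C3, C4b, C1ra, C1s1 and C2 encode secreted components, and the 2 genes C3ar1 and C5ar1 encode receptors found on myeloid cells.

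All 6 tumours came from the mouse high-grade serous ovarian cancer line 60577, injected into the abdominal cavity of syngeneic mice and left to establish for 21 days. In the AZD7507 group (n = 3) the animals received 3 weekly cycles of Carboplatin and then AZD7507, an inhibitor of the macrophage growth factor receptor CSF1R, by daily gavage for 84 days. The Vehicle group (n = 3) carries the label Vehicle, and the protocol text is the same for both groups, so the tumours of both had been exposed to Carboplatin according to it. Tumours were collected at humane endpoint, which can differ in day between animals. Strain, age and sex of the mice are not given in the sources used here. The design text counts mouse tumours and the labels name no animal for each, so p-values rest on the spread among tumours, which may be partly technical.

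Complement is a cascade of plasma and tissue proteins that marks surfaces for uptake and releases inflammatory peptides. The classical route starts when C1q binds a target and activates the proteases C1r and C1s, which cut C4 and C2 to build an enzyme that cuts C3. Cleavage of C3 and C5 releases the anaphylatoxins C3a and C5a, which act on the receptors encoded by C3ar1 and C5ar1. The liver supplies most plasma complement, while fibroblasts, epithelial and mesothelial cells and macrophages can make components in tissue.

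Promoter sequences are shown for both receptor genes, which were lower together in the AZD7507 tumours, and for C3, which was not, so that the regions can be read side by side. RefSeq sequences of GRCm38.p6 were matched for 5 of the 8 listed genes. Each line holds the 250 bases before the RefSeq start, 5′ to 3′ on the gene's strand. GENCODE M21, used for gene positions here, starts C5ar1 further upstream, so that 202 of the 250 bases of its window lie inside the GENCODE gene, against 4 for C3ar1 and 0 for C3. Capitals mark matches, on either strand, to TGANTCA (the AP-1 motif) in C3ar1, to AGGAAG (an ETS family core) in C5ar1, and to TTGCNNAA (a C/EBP motif) in C3.
C3ar1 (chr6:122856158-122856407, minus strand): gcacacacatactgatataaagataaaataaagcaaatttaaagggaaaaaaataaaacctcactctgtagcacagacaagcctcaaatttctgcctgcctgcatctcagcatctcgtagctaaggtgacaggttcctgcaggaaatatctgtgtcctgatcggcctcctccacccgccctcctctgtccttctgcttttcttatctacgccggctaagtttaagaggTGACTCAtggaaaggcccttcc
C5ar1 (chr7:16259339-16259588, minus strand): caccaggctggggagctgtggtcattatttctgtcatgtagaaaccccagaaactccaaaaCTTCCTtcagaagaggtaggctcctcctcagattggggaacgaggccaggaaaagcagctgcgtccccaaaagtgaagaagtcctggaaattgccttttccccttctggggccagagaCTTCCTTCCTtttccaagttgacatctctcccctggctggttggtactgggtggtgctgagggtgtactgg
C3 (chr17:57228137-57228386, minus strand): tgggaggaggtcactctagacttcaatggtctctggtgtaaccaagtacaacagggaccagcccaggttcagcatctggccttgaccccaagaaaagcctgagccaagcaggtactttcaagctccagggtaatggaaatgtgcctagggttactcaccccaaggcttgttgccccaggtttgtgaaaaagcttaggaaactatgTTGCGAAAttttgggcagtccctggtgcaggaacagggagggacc

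The C3ar1 window held 1 AP-1 match, 22 bases before the start, and a match of this kind was present in 6.75% of 32851 mouse promoter windows of the same length. C5ar1 held 3 AGGAAG matches, at 189, 71 and 67 bases before the start, of which the last 2 overlap and all 3 lie inside the gene as GENCODE annotates it, and 29.5% of all windows held at least 1. C3 held 1 C/EBP match, 45 bases before the start, against 9.56% of all windows. GAGGAAG, a longer form of the ETS core bound by PU.1, had no match in any of these 3 windows and was present in 10.6% of all windows. The component gene C1s1, not shown, also held 1 AGGAAG match, 8 or 46 bases upstream depending on the annotated start. Its window at the first of these starts also held 1 C/EBP match, 242 bases upstream. C1ra, also not shown, had no match to any of these motifs. The motifs were chosen after the sequences had been seen, and a match describes letters only.

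The groups overlapped for all 5 component genes, while both receptor genes were lower in every AZD7507 tumour than in any Vehicle tumour. The differences, as AZD7507 minus Vehicle on the log2 RPKM scale, lay between 0.029 and 0.41 for the 5 components and were -1.36 for C3ar1 and -1.22 for C5ar1. RPKM is read density per gene length and library size. None of the 7 genes passed limma's Benjamini-Hochberg adjusted p threshold of 0.05 over all genes, a rule that called 0.337% of genes as lower and 0.0184% as higher. At an unadjusted p under 0.05 from limma, 2 of the 7 were lower, against 5.49% of all genes, and 0 higher, against 3.31%. Groups that did not overlap, with AZD7507 lower, were found for 2 of the 7 genes and for 8.02% of all genes, and with AZD7507 higher for 0 of the 7 and for 7.34% of all genes. The median difference of all 16344 genes was 0.025, with 8909 above 0 and 7435 below.

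**Figure D1:**
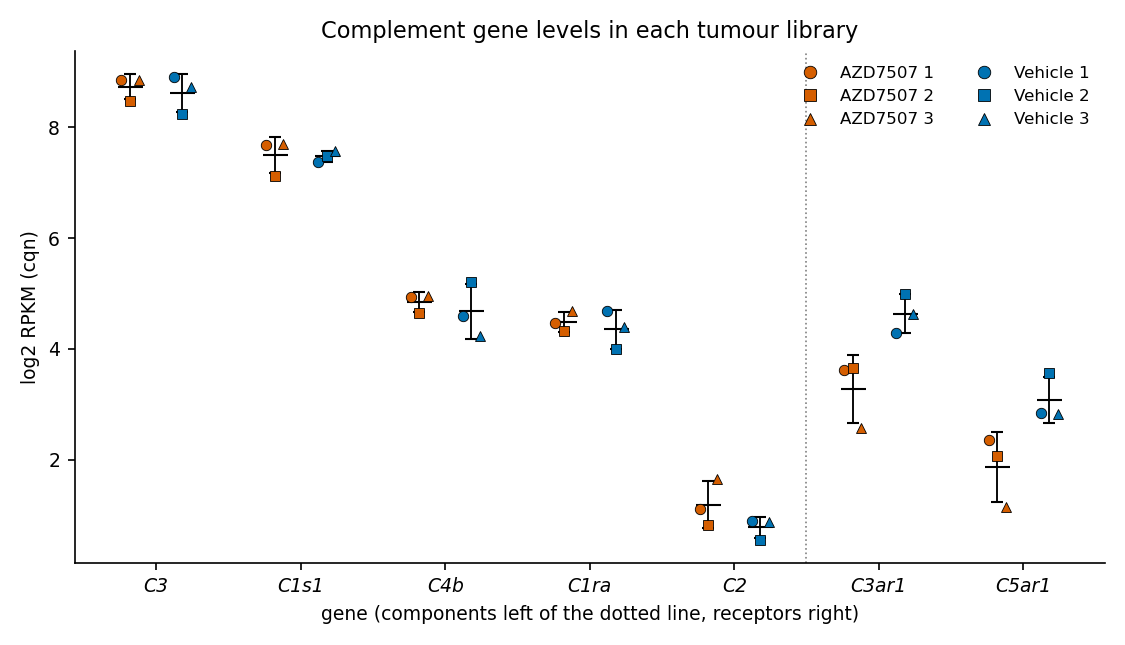
Level of each measured complement gene (log2 RPKM, vertical axis) in the AZD7507 (left of each pair, orange) and Vehicle (right, blue) libraries. Each point is 1 tumour library, horizontal bars are means and vertical bars SDs (n = 3 per group). The groups overlap for the 5 components and are apart for C3ar1 and C5ar1.

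C3 encodes the component on which all activation routes converge. Its log2 RPKM was 8.86, 8.48 and 8.86 in the AZD7507 tumours and 8.90, 8.24 and 8.72 in the Vehicle tumours. The groups overlapped, and the lowest library of each was the second one, AZD7507 2 and Vehicle 2. The means were 8.73 ± 0.22 with AZD7507 and 8.62 ± 0.34 with Vehicle (SD, n = 3 each), differing by 0.11 (SE 0.20, limma adjusted p 0.92). The 95% interval of the difference ran from -0.37 to 0.59, or from 0.775-fold to 1.51-fold. A fall of the size seen for either receptor gene lies outside that interval.

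C3 was among the most abundant transcripts of these tumours. It ranked between 15 and 28 of 16344 genes in the AZD7507 libraries and between 14 and 40 in the Vehicle libraries. On the linear scale this was 357 to 464 RPKM with AZD7507 and 303 to 477 RPKM with Vehicle. The top 100 ranks held identical values in all 6 libraries, so C3's value there reflects its rank. AZD7507 1 and AZD7507 3, both with C3 at rank 15, thus carry the same C3 value. Of the summed RPKM of the 7 genes, C3 made up 62.6%, 63.7% and 62.8% in the AZD7507 libraries and 66.2%, 52.3% and 61.5% in the Vehicle libraries.

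C4b encodes the classical and lectin route component C4, which like C3 carries an internal thioester that binds it to surfaces. Its levels were 4.93, 4.64 and 4.95 log2 RPKM with AZD7507 and 4.59, 5.21 and 4.23 with Vehicle. Vehicle 2 was the highest library and Vehicle 3 the lowest, so the AZD7507 values lay inside the Vehicle range. The difference was 0.16 (SE 0.24, 95% interval -0.40 to 0.73, limma adjusted p 0.90). Without AZD7507 2 and Vehicle 2, the 2 libraries rich in pancreatic acinar transcripts, it was 0.53 (limma adjusted p 0.19). The related gene C4a was at -1.21 ± 0.18 log2 RPKM with AZD7507 and -0.96 ± 0.22 with Vehicle. In GENCODE M21, 23.5% of the 75-base words of the C4b transcript also occur in C4a, so reads of these genes may have been divided or dropped in counting.

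C1s1 encodes the C1s protease that cuts C4 and C2. It stood at 7.68, 7.13 and 7.70 log2 RPKM with AZD7507 and 7.37, 7.48 and 7.57 with Vehicle. The AZD7507 libraries included both the lowest and the highest values, and the groups overlapped. Its difference of 0.029 was the smallest of the 7 genes (SE 0.18, 95% interval -0.39 to 0.45, limma adjusted p 0.98). Without both acinar-rich libraries the C1s1 difference was 0.22 (limma adjusted p 0.41).

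C1ra encodes the C1r protease that activates C1s. Its log2 RPKM was 4.47, 4.32 and 4.68 with AZD7507 and 4.69, 3.99 and 4.39 with Vehicle. The groups overlapped, and the second library was again the lowest of each. The difference was 0.13 (SE 0.19, 95% interval -0.32 to 0.58, limma adjusted p 0.89), and it was 0.035 without both acinar-rich libraries. C1s1 exceeded C1ra in every library although their products act in a single complex. The log2 ratio of C1s1 to C1ra was 3.01 ± 0.20 with AZD7507 and 3.12 ± 0.41 with Vehicle (SD, n = 3 each). The transcript of C1ra shared 40.1% of its 75-base words with C1rb, and that of C1s1 shared 14.7% with C1s2, so part of this ratio may come from how reads were assigned.

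C2 encodes the protease subunit that joins C4b protein in the classical C3-cutting enzyme. It was the least abundant of the 7, at 1.10, 0.82 and 1.65 log2 RPKM with AZD7507 and 0.90, 0.56 and 0.87 with Vehicle. AZD7507 2 lay below 2 of the 3 Vehicle libraries, so the groups overlapped. The difference was 0.41 (SE 0.25, 95% interval -0.16 to 0.99, limma adjusted p 0.71), and 0.18 without AZD7507 3. C2 is uncertain here because 55.6% of its words also occur in Gm20547, an annotated gene that overlaps both C2 and Cfb on the same strand. Zbtb12 overlaps C2 on the other strand and also has a row, and the strand setting of the counting is not given in the sources used here.

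C3ar1 encodes the receptor for C3a. It was at 3.61, 3.65 and 2.57 log2 RPKM in the AZD7507 tumours and at 4.29, 4.99 and 4.63 in the Vehicle tumours. All 3 AZD7507 libraries lay below the lowest Vehicle library, and AZD7507 3 was the lowest of all. The means were 3.28 ± 0.61 with AZD7507 and 4.64 ± 0.35 with Vehicle (SD, n = 3 each), which was 2.57-fold lower with AZD7507 (difference -1.36, SE 0.31). The 95% interval ran from -2.10 to -0.62, with an unadjusted p of 0.0031 and an adjusted p of 0.19 from limma. On the linear scale the AZD7507 libraries held 5.93 to 12.6 RPKM and the Vehicle libraries 19.6 to 31.7 RPKM.

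C5ar1 encodes the main signalling receptor for C5a. Its levels were 2.36, 2.07 and 1.15 log2 RPKM with AZD7507 and 2.85, 3.56 and 2.82 with Vehicle. The groups were again apart, with AZD7507 3 lowest and Vehicle 2 highest. The means were 1.86 ± 0.63 and 3.08 ± 0.42 for AZD7507 and Vehicle (SD, n = 3 each), 2.32-fold lower with AZD7507 (difference -1.22, SE 0.34). The 95% interval ran from -2.01 to -0.43, with an unadjusted p of 0.0081 and an adjusted p of 0.29 from limma. Without AZD7507 3 the differences were -0.86 for C5ar1 and -1.004 for C3ar1.

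Neither receptor transcript shared a 75-base word with another annotated gene, and no annotated gene overlaps either of them. C3ar1 lies on chromosome 6 at 122847138 to 122856161 and C5ar1 on chromosome 7 at 16246743 to 16259540, both on the minus strand of GRCm38. The log2 ratio of C3ar1 to C5ar1 was 1.42 ± 0.17 with AZD7507 and 1.56 ± 0.22 with Vehicle (SD, n = 3 each), and differed by -0.14 (exact permutation test over tumours, 2-sided, p = 0.40). The component genes C3, C4b and C2 lie on chromosome 17, at 57203970 to 57228136, 34728380 to 34743882 and 34862604 to 34898265, all on the minus strand. C1ra and C1s1 lie on chromosome 6, at 124512405 to 124523443 on the plus strand and 124530345 to 124542359 on the minus strand. All 7 are annotated as protein-coding in GENCODE M21.

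**Figure D2:**
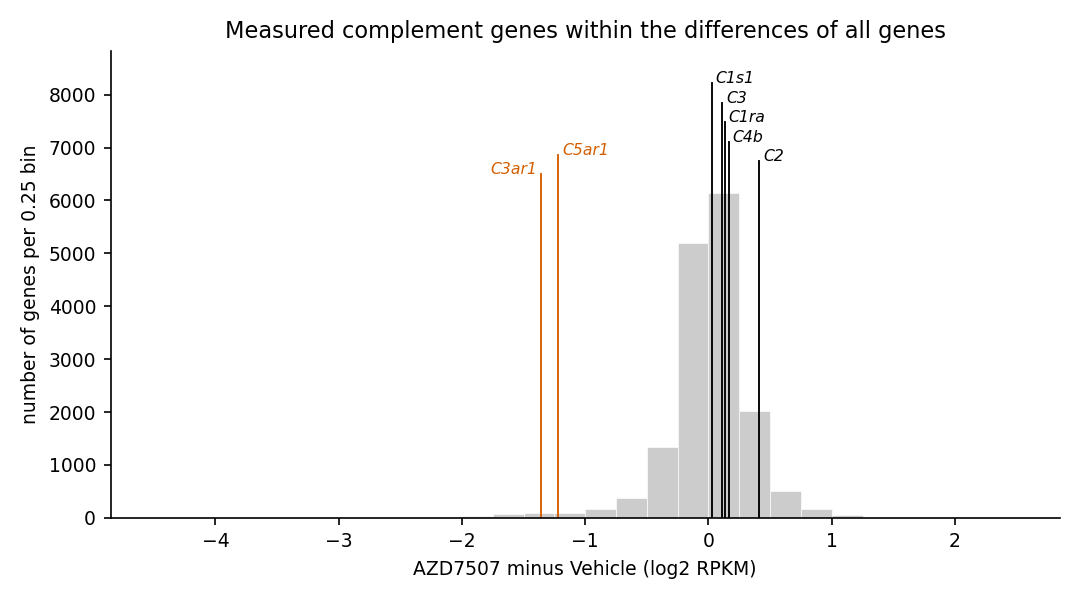
Histogram of the AZD7507 minus Vehicle difference (log2 RPKM, horizontal axis) for all 16344 genes, with the number of genes per bin on the vertical axis. Vertical lines mark the 5 components (black), between 0.029 and 0.41, and the receptors C3ar1 and C5ar1 (orange), at -1.36 and -1.22.

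Because levels are per gene length, the 7 genes can be ordered. The share of 75-base words also found in other genes was 0% for C3, C3ar1 and C5ar1. It was 55.6% for C2, 42.4% for C1ra, 23.5% for C4b and 14.7% for C1s1. Reads of these 4 genes may have been divided or dropped in counting, so their places are less certain. With AZD7507 the order of means was C3, C1s1, C4b, C1ra, C3ar1, C5ar1 and C2. With Vehicle it was C3, C1s1, C4b, C3ar1, C1ra, C5ar1 and C2, so C3ar1 and C1ra changed places. C3 was above C1s1, and C1s1 above the next gene, in 3 of 3 libraries of each group, with ranges that did not overlap. C4b and C1ra overlapped in range with AZD7507, as did C5ar1 and C2. With Vehicle, C4b overlapped with C3ar1, and C3ar1 with C1ra. C3ar1 stood above C1ra in 2 of 3 Vehicle libraries and below it in 3 of 3 AZD7507 libraries.

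The contrast of receptors with components was also read within each library, as a log2 ratio to C3. For C3ar1 this was -5.25, -4.83 and -6.29 in the AZD7507 libraries and -4.61, -3.25 and -4.09 in the Vehicle libraries. All AZD7507 ratios lay below all Vehicle ratios, and their means differed by -1.47, which was 2.77-fold. For C5ar1 the ratios to C3 were -6.50, -6.41 and -7.71 with AZD7507 and -6.05, -4.68 and -5.90 with Vehicle. The groups were again apart, with a difference of -1.33, or 2.51-fold. The value of C3 reflects its rank, which was 28 in AZD7507 2 and 40 in Vehicle 2, against 14 to 19 elsewhere. These acinar-rich libraries had the highest ratio of their group for both receptor genes, so the reference itself shifts between libraries. For each ratio the exact permutation test over tumours (2-sided) gave p = 0.10, the smallest that 3 against 3 allows, or 0.15 after Benjamini-Hochberg adjustment over the 6 ratios computed.

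Both receptor genes had smaller differences than Csf1r, the gene of the drug's target. Csf1r was at 2.35 ± 0.56 log2 RPKM with AZD7507 and 4.97 ± 0.45 with Vehicle, and fell by 2.62 (SE 0.32, limma adjusted p 0.035). The log2 ratio of C3ar1 to Csf1r was 1.04, 0.88 and 0.85 with AZD7507 and -0.56, -0.48 and 0.039 with Vehicle. That of C5ar1 to Csf1r was -0.21, -0.71 and -0.56 with AZD7507 and -2.001, -1.91 and -1.77 with Vehicle. Relative to Csf1r, both receptor genes were therefore higher in every AZD7507 library than in any Vehicle library. The Csf1r difference lay within the lowest 0.128% of all genes, so nearly every gene has a positive difference relative to it. The direction of these ratios is thus not particular to the receptor genes. The differences of the ratios were 1.26 for C3ar1 and 1.40 for C5ar1, each with exact permutation p = 0.10 (2-sided, the smallest possible) and 0.15 after the same adjustment. These 2 ratios were added after the values had been seen.

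**Figure D3:**
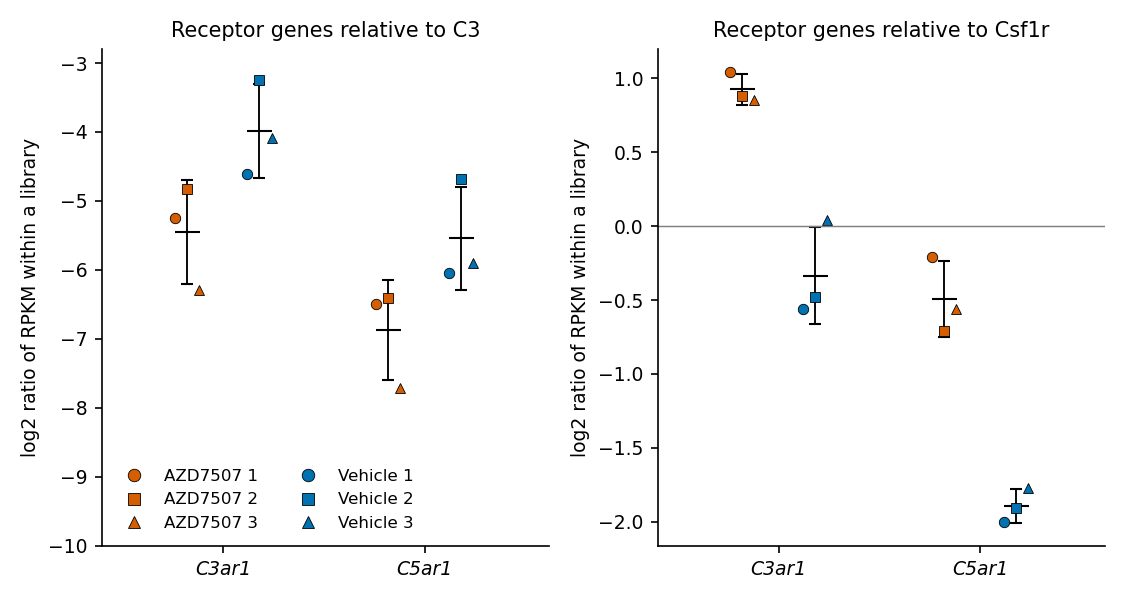
Log2 ratio of C3ar1 and of C5ar1 to C3 (left panel) and to Csf1r (right panel) within each AZD7507 (orange, left of each pair) and Vehicle (blue) library. Points are libraries, horizontal bars means and vertical bars SDs (n = 3 per group). The ratios to C3 are lower, and the ratios to Csf1r higher, in all AZD7507 libraries.

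Macrophage markers were lower alongside the receptor genes. Of the macrophage list, 11 of 12 genes were measured, 11 had a negative difference, and 3 fell by the adjusted test (Csf1r, Adgre1 and Cx3cr1). Over all 16344 genes, 7435 differences were negative and 55 genes fell by that test. The measured markers summed to 66.2 to 173 RPKM in the AZD7507 libraries and 254 to 452 RPKM in the Vehicle libraries. Most of that sum was Lyz2, at 39.8 to 125 RPKM with AZD7507 and 157 to 295 RPKM with Vehicle. No measured marker was at 0. The differences ran from -3.18 for Cx3cr1 to -0.69 for Trem2. In bulk tumours fewer macrophages and less RNA per macrophage cannot be told apart, and the part of macrophage number in the receptor differences was not tested. Monocyte markers (5 of 6 measured) summed to 15.04 to 27.7 RPKM with AZD7507 and 22.5 to 40.7 RPKM with Vehicle, with differences from -1.67 for Ccr2 to 1.14 for Chil3. C5ar1 is also a neutrophil gene. Neutrophil markers (5 of 8 measured, none at 0) summed to 6.11 to 9.77 RPKM with AZD7507 and 3.74 to 15.3 RPKM with Vehicle, with overlapping ranges and differences from -0.68 for Csf3r to 1.11 for Cxcr2. Dendritic cell markers (4 of 9) summed to 9.16 to 11.2 and 10.4 to 12.5 RPKM in AZD7507 and Vehicle libraries. Of these 4, Itgax, which is also a complement receptor gene, differed by -1.44, the other 3 had positive differences up to 0.41 for Ccr7, and the median was 0.18. Mast cell markers (2 of 8) summed to 7.92 to 10.9 RPKM with AZD7507 and 4.82 to 11.4 RPKM with Vehicle, with differences of 0.33 for Hdc and 0.054 for Kit.

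Of the cells other than macrophages that could supply the components, none of the fibroblast, mesothelial or epithelial markers passed the limma adjusted test. Fibroblast markers (10 of 10 measured) summed to 617 to 722 RPKM with AZD7507 and 583 to 870 RPKM with Vehicle. Their differences were negative for 9 of 10, from -0.61 for Pi16 to 0.22 for Dcn, with a median of -0.26. The groups were narrowly apart for Pi16, with AZD7507 lower, as they were for 8.02% of all genes. Mesothelial markers (8 of 8) summed to 699 to 1017 RPKM with AZD7507 and 499 to 808 RPKM with Vehicle. All 8 differences were positive, from 0.014 for Msln to 0.67 for Gpm6a, with a median of 0.33, and the groups were apart for Gpm6a. Markers of epithelium and serous tumour (11 of 12) summed to 616 to 832 RPKM with AZD7507 and 460 to 722 RPKM with Vehicle. All 11 measured were positive, from 0.014 for Msln to 1.19 for Cldn3, with a median of 0.26. The groups were apart for Krt8 and Krt18. Both lists hold Msln, Wt1 and Krt19, so they are not independent. Over all 16344 genes, 8909 differences were positive and 7435 negative, and 7.34% of genes were apart with AZD7507 higher. Wt1 was at 6.52 ± 0.18 and 6.41 ± 0.26 log2 RPKM in AZD7507 and Vehicle tumours. Pax8, a defining gene of serous ovarian cancer, was by contrast near the bottom of the table at -3.11 ± 0.64 and -3.20 ± 0.97. Of 10 hepatocyte genes only Ahsg had a row, at 3.22 ± 0.37 with AZD7507 and 3.83 ± 0.42 with Vehicle. Endothelial markers (7 of 7) summed to 55.8 to 58.6 RPKM with AZD7507 and 39.3 to 51.3 RPKM with Vehicle, and adipocyte markers (4 of 8) to 69.7 to 105 and 51.7 to 77.9 RPKM. Endothelial differences ran from -0.47 for Cldn5 to 0.41 for Esam, and adipocyte differences from -0.36 for Fabp4 to 0.70 for Plin1. The part of these cells in the component levels was not tested. Pancreatic acinar genes (9 of 12) reached 5409 RPKM in AZD7507 2 and 4904 RPKM in Vehicle 2, with differences between the groups from 0.023 for Cela1 to 1.21 for Prss2. In these 2 libraries they stood among the top 100 ranks, where a value reflects the rank, so these sums do too. Prss2 thus had the same 9.44 log2 RPKM in both. Between those 2 libraries alone, AZD7507 2 minus Vehicle 2 was -1.33 for C3ar1, -1.49 for C5ar1, 0.24 for C3 and -0.57 for C4b.

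The wider complement system was read from lists of measured genes. Over all 16344 genes, 0.337% fell and 0.0184% rose by the adjusted test, so 0 calls is the usual outcome for a short list. Of all differences, 7435 were negative and 8909 positive. The 3 C1q genes, which start the classical route, all fell by the adjusted test, with differences from -2.66 for C1qc to -2.37 for C1qb. Of 5 other complement receptor genes 0 fell by the adjusted test, 5 had a negative difference, and the median was -1.44. C5ar2, which encodes the second C5a receptor, was at 0.19, 0.06 and -0.58 log2 RPKM with AZD7507 and 1.37, 1.60 and 1.53 with Vehicle. All AZD7507 values lay below all Vehicle values (difference -1.62, SE 0.24, limma adjusted p 0.054). The integrin genes of complement receptors CR3 and CR4 differed by -1.55 for Itgam, -1.44 for Itgax and -0.996 for the shared chain gene Itgb2, without passing. Cd93, which is also expressed by endothelium, differed by -0.28.

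Regulator genes were divided. Of 11 measured members (of 17 listed), 6 had a negative and 5 a positive difference, and the median was -0.20. By the adjusted test 0 passed, against 0.355% of all genes. Cfp encodes properdin, which stabilises the alternative route enzyme and is made by myeloid cells. It was at 3.36, 2.59 and 2.87 log2 RPKM with AZD7507 and 3.67, 4.53 and 3.64 with Vehicle, and the groups did not overlap (difference -1.01, SE 0.29, limma adjusted p 0.30). Among inhibitors, Serping1, which encodes the C1 inhibitor, was at 6.53 ± 0.21 with AZD7507 and 6.86 ± 0.18 with Vehicle. Clu, which encodes clusterin, an inhibitor of the terminal complex, was at 7.88, 7.74 and 8.43 with AZD7507 and 7.61, 7.68 and 7.56 with Vehicle (difference 0.40, limma adjusted p 0.61). Cd59a, whose product blocks the membrane attack complex, was higher in every AZD7507 library (difference 0.83, SE 0.27, limma adjusted p 0.41) but low, at 0.23 ± 0.27 with AZD7507 and -0.60 ± 0.33 with Vehicle. The decay accelerating factor gene Cd55 differed by -0.20, the rodent regulator gene Cr1l by -0.24 and the factor I gene Cfi by 0.18.

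Other component genes were mostly low. Of 20 listed, 9 were measured, with 4 negative and 5 positive differences and a median of 0.076. By the adjusted test 0 passed, against 0.355% of all genes. C6, of the membrane attack complex, was at -3.79, -3.40 and -4.02 log2 RPKM with AZD7507 and -0.88, -0.75 and -2.23 with Vehicle, apart without passing (difference -2.45, SE 0.50, limma adjusted p 0.13). Fcna, which encodes ficolin A, a lectin route sensor, was at -2.67, -1.74 and -1.50 with AZD7507 and -0.98, 2.51 and 0.38 with Vehicle (difference -2.61, SE 0.83, limma adjusted p 0.39). C6 was below 1 RPKM in all 6 libraries and Fcna in all AZD7507 libraries, so both may rest on few reads. C1rb, the relative of C1ra with which it shares sequence, was higher in every AZD7507 library, at -0.52, -0.32 and -0.48 with AZD7507 and -0.79, -1.61 and -1.29 with Vehicle (difference 0.79, SE 0.29, limma adjusted p 0.50). C1rb was also below 1 RPKM in all 6 libraries and has the same limit. Masp1, a lectin route protease gene, was at 2.04 ± 0.23 with AZD7507 and 1.91 ± 0.27 with Vehicle. Cfd, the alternative route protease gene of adipocytes, ranged from -1.13 to 1.03 with AZD7507 and from -2.33 to 0.02 with Vehicle.

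**Figure D4:**
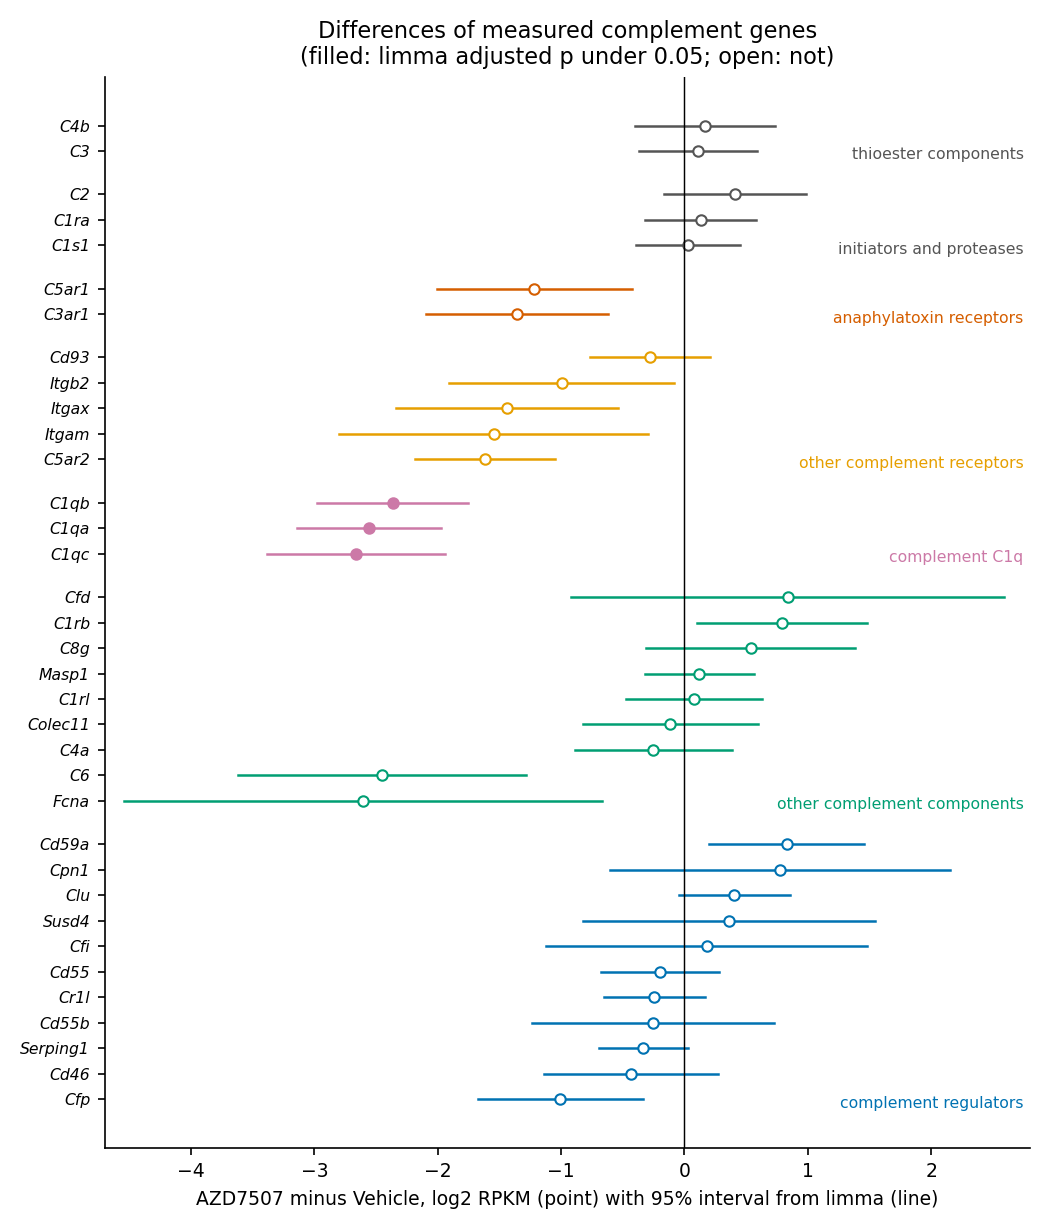
AZD7507 minus Vehicle difference (log2 RPKM, horizontal axis) of measured complement genes with the 95% interval of each from limma, grouped by role. Filled points passed the limma adjusted p threshold, which the 3 C1q genes did, and open points did not.

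The genes most like each gene in profile were taken by Pearson's r of log2 RPKM over the 6 libraries, as a description without a test. For C5ar1 these were Spi1 (r = 0.997), which encodes the myeloid transcription factor PU.1, the mannose receptor gene Mrc1 (r = 0.996) and the myeloid adaptor gene Card9 (r = 0.995). For C3ar1 they were Myom1, Cd300c2 and Lrrc25, with r of 0.99 each. The groups are apart for both receptor genes, so these r values take in the group difference as well as the spread within groups. For C3 they were Wbp1, Cald1 and Matr3, for C4b Rhbdd1, Dctd and Eif2s1, for C1s1 Ctsl, Wdr47 and Ajuba, for C1ra Grik5, Cst12 and Adgrb2, and for C2 Zmym4, Recql4 and Ighg2c. The highest r was 0.995 for C3 and C4b and 0.996 for C1s1, C1ra and C2. Values of r this high were thus not particular to the receptor genes. None of the genes named here for likeness passed the limma adjusted test.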

How the data were processed

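RNA of 3 AZD7507 and 3 Vehicle tumours was sequenced after ribosomal RNA depletion, per the labels' protocols. The authors deposited log2 RPKM values normalized with cqn (named in the table's title), which corrects for length and GC content. The library distributions were equal in median (2.32), upper quartile (3.52) and maximum (10.16), so a global change cannot be seen. BWA 0.7.15-r1140, HTSeq, mm10 and GRCm38 are named in the submitters' processing notes. Annotation release and strand setting are not given in the sources used here. Read depth per library is unknown, so no counting interval is given and precision comes from the spread between tumours.

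Symbols were matched for 16306 of 16344 identifiers. Positions and transcripts are from GENCODE M21. Differences were tested on the deposited log2 values with limma 3.58.1 in R 4.3.3 (trended, robust prior, no pseudocount or filter, Benjamini-Hochberg over all genes, threshold 0.05, 2-sided), after a check on simulated data. Alternatives were pseudocounts of 0.1 and 1, median centring, quantile normalization, array weights, a constant prior, a minimum mean of 0, each library left out, and both acinar-rich libraries left out. Groups came from the treatment label. The labels name no batch and no pairs. The genes and lists were chosen with earlier results of these data known. The named genes were all measured members, genes of the complement lists, the extremes of marker lists, and per member the 3 genes with the highest r, without Gm-numbered and Rik models. Adgre1, Lyz2, Wt1, Pax8, Krt8, Krt18 and Krt19 were named after their values were seen. A regulator gene is not reported here and was left out of its list.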

Additional observations from a re-analysis of the deposited data

How the results depend on the processing

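No paired analysis was possible because the labels give no replicate numbers shared between groups. Both receptor differences stayed negative and did not pass in any of the 14 alternatives. They ran from -1.55 to -1.004 for C3ar1 (limma adjusted p 0.11 to 0.43) and from -1.47 to -0.86 for C5ar1 (0.22 to 0.63). No component passed in any of the alternatives. Without Vehicle 1, 2 or 3 the fit called 0 of all genes, and without AZD7507 2 or 3 it called 1 or 2. Not passing in those fits is therefore not particular to the complement genes. Median centring and quantile normalization could change little, because the library distributions were already equal in median and upper quartile. Leaving out 1 library turned the sign of 4 components: the differences then ran from -0.077 to 0.25 for C3 (negative without Vehicle 2), from -0.060 to 0.43 for C4b (negative without Vehicle 3), from -0.051 to 0.30 for C1ra (negative without Vehicle 2) and from -0.070 to 0.22 for C1s1 (negative without Vehicle 1, AZD7507 1 or AZD7507 3). That of C2 stayed positive, from 0.18 without AZD7507 3 to 0.60 without AZD7507 2. The C4b difference was largest at 0.53 without both acinar-rich libraries (limma adjusted p 0.19) and at 0.48 with array weights (0.22). The ratio of C3ar1 to C3 differed by -1.79 to -1.05 without 1 library and by -1.42 without both acinar-rich libraries. That of C5ar1 to C3 differed by -1.58 to -0.90 without 1 library and by -1.13 without both, and the ratios to Csf1r, without 1 library, by 1.15 to 1.45 for C3ar1 and 1.26 to 1.51 for C5ar1. The exact permutation p, which cannot go below 0.10, was 0.10 for the ratios to Csf1r without any 1 library. For C3ar1 to C3 it was 0.20 without Vehicle 2, Vehicle 3 or AZD7507 3, and for C5ar1 to C3 it was 0.30 without Vehicle 2 and 0.20 without AZD7507 3.

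Over all genes, limma called 55 lower and 3 higher. Counts were 143 lower and 14 higher with array weights, 13 lower and 1 higher without both acinar-rich libraries, and 1 higher with a constant variance prior. Without 1 library they were 0 to 14 lower and 0 higher, with 606 to 1359 lower and 257 to 1082 higher at an unadjusted p under 0.05. The cause was not tested. The alternatives planned for Cfb were not run, as it had no row. Without counts, depth could not be assessed for low genes such as C2, C6 and Fcna.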
